A study of Mus musculus with 31 samples.

Results

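Mouse autosomes carry their centromere at one end, so the other end, where base numbering is highest, is a long-arm tip that runs into the telomere. The distal ends described here are the last 5 Mb of each of the 19 autosomes, 95 Mb in all, set against the remaining 2319.9 Mb. The end of a chromosome was taken as the highest base reached by any peak in the 18 lists, in build mm9, and a peak belongs to the distal end when its start lies within 5 Mb of that base. By this rule 9616 of 241112 autosomal peaks, and of 265274 nuclear peaks in all, are distal: 3980 peaks of H3K27me3 and 5636 of H3K9me3.

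The lists come from primordial germ cells, from which eggs and sperm later form, of wild-type embryos from a C57BL/6 x GOF18delta_PE-EGFP cross, whose Oct4-derived EGFP reporter marks germ cells for sorting. H3K27me3 and H3K9me3 were each mapped by native ChIP-seq from 1000 sorted cells per reaction, in 3 libraries per group: E10.5 (embryonic day; pooled embryos, no sex given), E13.5 female and E13.5 male. Whether replicates were separate animals is not in the labels, and the p-values below then reflect no more than library-to-library spread, part of which can be technical. The lists hold no expression values, and the germ-cell label was not checked against marker genes.

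H3K27me3 is laid down by Polycomb repressive complexes, typically over CpG-rich promoters of developmental regulators that the cell keeps silent, and it forms broad domains over clustered homeobox genes. H3K9me3 marks constitutive heterochromatin and silenced repeats, such as endogenous retroviruses and satellite sequence around centromeres and near telomeres. In germ cells of these ages DNA methylation is being erased across the genome, and the series asks what histone marks do meanwhile.

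The lists differ widely in length and the read depth is unknown. The shortest H3K27me3 list, E13.5 male replicate 2, held 359 peaks and the longest, E10.5 replicate 3, held 23141. For H3K9me3 the shortest was E10.5 replicate 3 with 1107 peaks, and the longest E13.5 male replicate 1 with 56632. Levels are therefore given within a list, as the length in peaks per Mb of the distal ends over that of the rest, on a log2 scale where 0 is no difference. The 359-peak list stands apart: 45.6% of its length outside the distal ends, and 21.0% within them, lay in peaks of the H3K9me3 list with the same group and number, against at most 5.50% and 1.96% in the other 8 pairs. In H3K27me3 E10.5 replicate 3, the control named in the peak names is an H3K9me3 input.

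H3K27me3 peaks covered more of the distal ends than of the rest of the autosomes in all 9 libraries. At E10.5 the covered length was 14.2, 1.96 and 25 kb per Mb at the distal ends in replicates 1, 2 and 3, and 7.83, 0.812 and 14 kb per Mb in the rest. In E13.5 female cells it was 1.07, 3.11 and 2.85 kb per Mb against 0.607, 2.05 and 1.61 kb per Mb. In E13.5 male cells it was 1.99, 0.0884 and 3.58 kb per Mb against 0.979, 0.0631 and 1.57 kb per Mb. The distal value was the higher one in each library, although its level ranged over more than 2 orders of magnitude with the length of the list. The mean log2 ratio was 0.88 ± 0.25 (SD, n = 9), a 1.84-fold difference (exact two-sided sign-flip test, p = 0.003906, the smallest that 9 libraries allow; adjusted p = 0.00977 over 10 tests).

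That excess was not spread evenly over peaks or chromosomes. Among the 359 peaks with the highest score in each list, the number in the shortest list, the mean log2 ratio was -0.34 (exact sign-flip p = 0.328), below 0 in 5 libraries. Without chromosome 15 the mean log2 ratio was 0.45 (exact sign-flip p = 0.00781). Taken as the median over the 19 autosomes it was 0.13 (exact sign-flip p = 0.117). That median has 1 kb per Mb added to both densities of each autosome, which pulls the ratios of thin lists towards 0. It is therefore not on the same scale as the ratio over all autosomes together.

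H3K9me3 peaks showed the opposite balance over the same 5 Mb. At E10.5 the covered length was 0.70, 13.7 and 0.111 kb per Mb at the distal ends and 0.747, 17.8 and 0.147 kb per Mb in the rest. In E13.5 female cells it was 1.54, 3.11 and 0.883 kb per Mb against 2.02, 4.08 and 1.38 kb per Mb, and in E13.5 male cells 24.5, 13.2 and 7.40 kb per Mb against 30.9, 18.1 and 9.84 kb per Mb. The distal value was the lower one in all 9 libraries, least so in E10.5 replicate 1. The rest includes the ends near the centromere, which are dense in H3K9me3, and a ratio without them was not computed. In E10.5 replicate 1 those ends held 1.91 kb per Mb, so the sign of its small difference is not secure. The mean log2 ratio was -0.39 ± 0.14 (SD, n = 9), 0.763-fold (exact sign-flip test, p = 0.003906; adjusted p = 0.00977). H3K27me3 and H3K9me3 libraries did not overlap in this ratio, and their means differed by 1.27 (exact permutation test over 18 libraries, p = 4.11e-05; adjusted p = 4.11e-04). The difference between the marks was 0.60 (exact permutation p = 0.112) among top-ranked peaks. These were 359 per H3K27me3 list and 1107 per H3K9me3 list, equal within a mark but not between the marks.

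**Figure D1:**
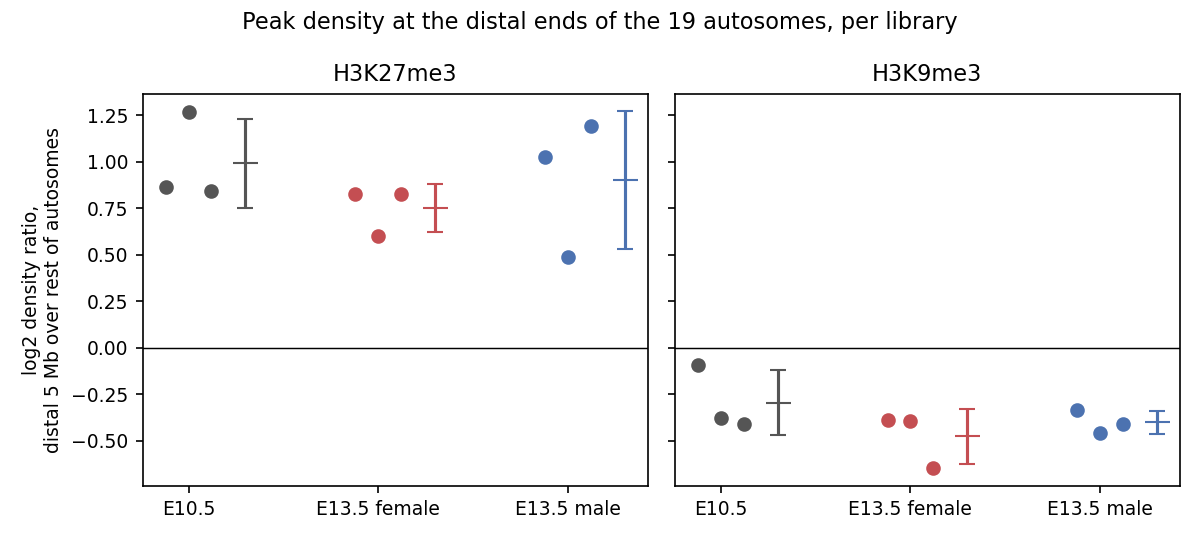
Log2 ratio of peak length per Mb in the distal 5 Mb over the rest of the autosomes (vertical axis), 1 point per library, with mean ± SD (n = 3) beside each group. All 9 H3K27me3 libraries lie above 0 (0.49 to 1.27) and all 9 H3K9me3 libraries below it (-0.64 to -0.09).

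The tips were also compared with the opposite, centromere-proximal end of each chromosome, the first 5 Mb of its measured length. H3K27me3 was denser at the distal than at the proximal end in 8 of 9 libraries, by 1.49 ± 1.26 on the log2 scale (SD, n = 9; exact sign-flip p = 0.0195; adjusted p = 0.0279). The exception was E13.5 male replicate 2, the list of 359 peaks, at -1.75, while the other 8 ran from 1.40 to 2.39. H3K9me3 was sparser at the distal end in all 9 libraries, by -1.78 ± 0.41 (SD, n = 9; exact sign-flip p = 0.003906; adjusted p = 0.00977). Its proximal ends held 2.1 to 4.40 times the peak length per Mb of the rest. These ends are part of the rest for both marks. Among the 359 top-ranked peaks of each list the H3K27me3 value was -1.20 (exact sign-flip p = 0.0977).

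The 3 groups of germ cells did not differ by these tests in how the marks divide between tips and rest. For H3K27me3 the mean log2 ratio was 0.99 ± 0.24 at E10.5, 0.75 ± 0.13 for E13.5 female and 0.90 ± 0.37 for E13.5 male libraries (SD, n = 3 each). E13.5 female was 0.24 below E10.5 with no overlap (exact permutation p = 0.1, the smallest that 3 against 3 allows; adjusted p = 0.64), but the nearest libraries, at 0.83 and 0.84, were almost equal. For H3K9me3 it was -0.29 ± 0.17, -0.48 ± 0.15 and -0.40 ± 0.06 in the same order (SD, n = 3 each). In the 8 comparisons between groups the adjusted exact permutation p was 0.64 to 0.80. With 3 libraries a group only 6 against 3 could pass 0.05, at best at an exact p = 0.0119, so these values do not show that the groups are alike.

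Along the last 5 Mb the marks followed different courses. H3K27me3, relative to the library's own mean over the autosomes, was 2.07 ± 0.53 in the last Mb, then 2.06 ± 0.58, 1.69 ± 0.34, 1.27 ± 0.42 and 1.91 ± 0.78 moving inwards (mean ± SD, n = 9). Just outside the 5-Mb limit, from 5 to 6 Mb, it was 1.94 ± 0.38, so the limit does not coincide with a step in density. Levels of the same order recurred further in, with 1.71 ± 0.55 from 9 to 10 Mb and 2.29 ± 0.88 from 16 to 17 Mb. The step from 16 to 17 Mb was 3.21 ± 0.65 at E10.5 (SD, n = 3).

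H3K9me3 was 1.45 ± 0.42 times its autosomal mean in the last Mb, 0.51 ± 0.19, 0.37 ± 0.16 and 0.45 ± 0.28 over the next 3, and 1.08 ± 0.18 from 4 to 5 Mb (mean ± SD, n = 9). Just outside the limit it was 1.18 ± 0.31. From 10 to 18 Mb its means lay between 0.50 and 0.74, so values below the autosomal mean were not limited to the tips.

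**Figure D2:**
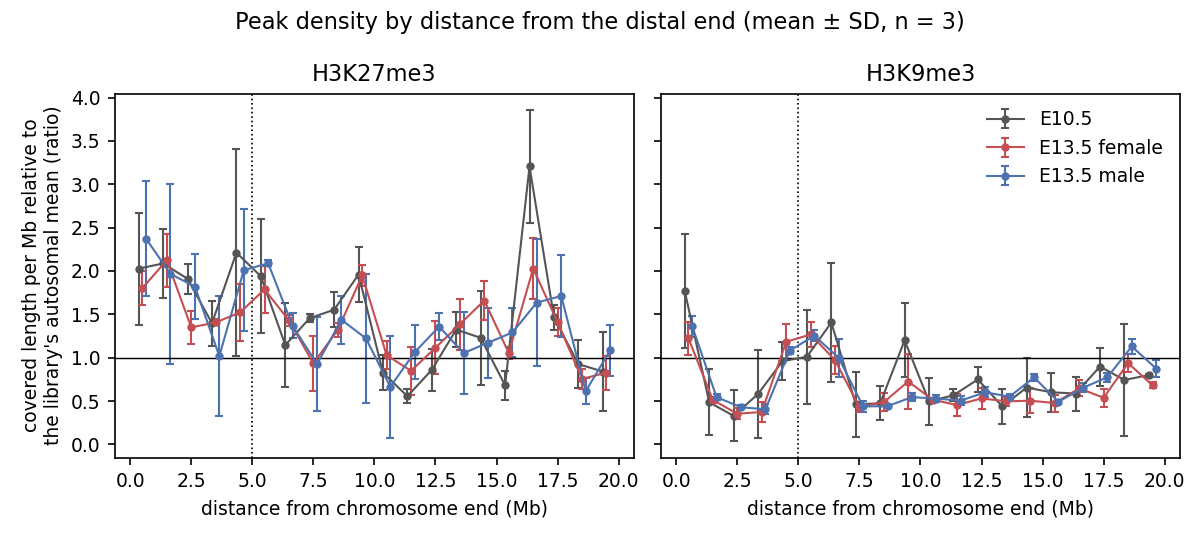
Peak length per Mb relative to each library's autosomal mean (vertical axis, ratio, 1 = mean) against distance from the chromosome end in 1-Mb steps (horizontal axis, to 20 Mb), as mean ± SD of 3 libraries per group; the dotted line marks 5 Mb. H3K9me3 is above 1 in the last Mb and between 0.33 and 0.58 over the next 3 Mb in the means of all 3 groups, while the group means of H3K27me3 stay above 1 throughout the last 5 Mb.

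The H3K9me3 deficit thus reversed at the very tip. Over the last 1 Mb the density was 1.44 ± 0.42 times that of the rest (mean ± SD, n = 9), above 1 in 8 libraries and 0.996 in E13.5 female replicate 3. From 1 to 5 Mb it was 0.599 ± 0.127 times the rest, below 1 in all 9 libraries. Over the last 200 kb it was 2.77, 2.83 and 8.0 times the rest in E10.5 replicates 1, 2 and 3. There it was 2.90, 3.12 and 3.02 times the rest in E13.5 female and 2.83, 2.31 and 2.53 times in E13.5 male cells. All 9 libraries were above 1, and the one far above the others, E10.5 replicate 3, had 10 peaks there. On the log2 scale the ratio was 0.50 for the last 1 Mb and 1.66 for the last 200 kb (exact sign-flip p = 0.003906 each). Both windows were chosen after the step pattern was seen, so these p-values describe it and do not test it independently.

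That terminal H3K9me3 came from several to most chromosomes, depending on the list. E13.5 male lists had peaks in the last 200 kb of 18 of 19 autosomes each, E13.5 female lists of 15, 17 and 9, and E10.5 lists of 7, 18 and 6. In the 4 lists with the fewest peaks there, E10.5 replicates 1 and 3 and E13.5 female replicates 1 and 3, chromosome 13 alone held 32.8, 41.0, 33.7 and 35.7% of that length. In the other 5 lists chromosome 1 held most, from 15.7 to 23.7%. The last 100 kb alone was 5.39 ± 4.04 times as dense as the rest (mean ± SD, n = 9), with E10.5 replicate 3 at 16 and the other 8 from 3.09 upwards. In the last Mb, chromosomes 5, 13 and 18 exceeded the library's density over the rest of all autosomes in each of the 9 libraries. H3K9me3 peaks themselves set the end base on 16 autosomes and H3K27me3 peaks on 3. With those end-setting peaks left out the last 100 kb was 5.29 ± 4.09 times and the last 200 kb 3.32 ± 1.78 times the rest (mean ± SD, n = 9). The windows were still counted from the same bases, and any peaks of other lists at those sites stayed in. Both sets of values therefore depend on where this mark has its outermost peaks, and a density free of that was not tested.

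H3K27me3 was sparse where H3K9me3 was dense. Over the last 200 kb it was 0.410 ± 0.494 times the rest (mean ± SD, n = 9), below 1 in 8 libraries and 1.68 in E13.5 male replicate 2, where a single peak made up the value. E10.5 replicate 2 had no peak there. From 600 to 700 kb and from 700 to 800 kb from the end, the density was 8.15 ± 3.46 and 7.93 ± 3.67 times that of the rest, and no library was under 2.95 in either step.

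**Figure D3:**
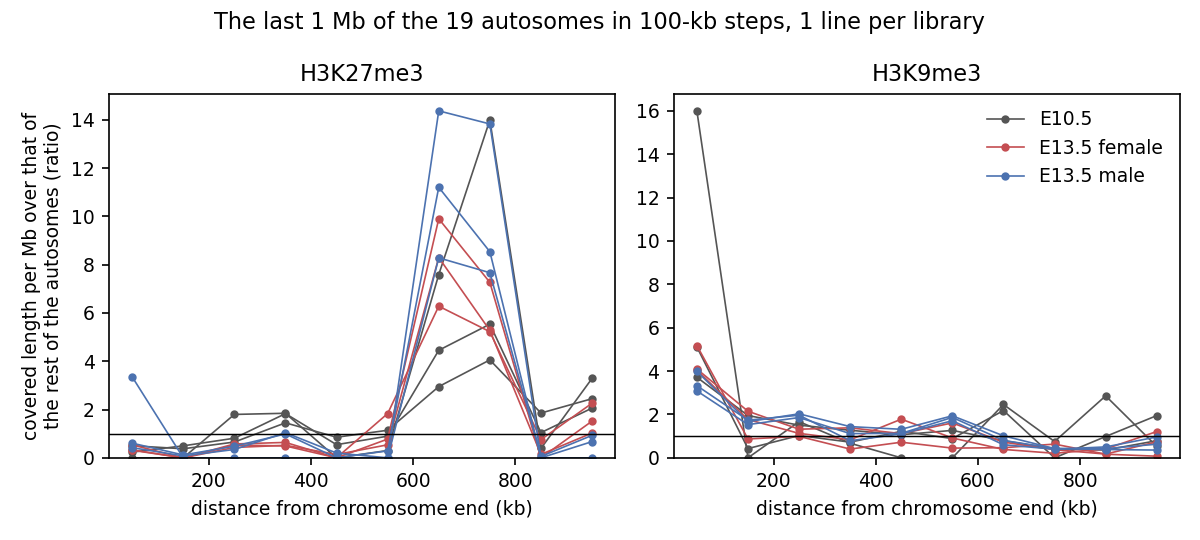
Peak length per Mb over that of the rest of the autosomes (vertical axis, ratio; scales differ between panels) in 100-kb steps from the chromosome end (horizontal axis), 1 line per library. H3K9me3 is highest in the last 100 kb in all 9 libraries, and H3K27me3 between 600 and 800 kb.

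A single chromosome held most of the H3K27me3 of the last Mb. Chromosome 15 had a mean of 78.8% of that length, from 53.4% (E10.5 replicate 3) to 91.7% (E13.5 female replicate 1). The next were chromosome 2 with a mean of 6.99% and chromosome 7 with 5.57%. Across its last 5 Mb, chromosome 15 held 28.6 ± 4.59% of all distal H3K27me3 length (SD, n = 9).

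On chromosome 15 the distal density of H3K27me3 was 66.7, 11.8 and 100.8 kb per Mb at E10.5. It was 6.06, 17.1 and 16 kb per Mb in E13.5 female and 12.4, 0.592 and 16 kb per Mb in E13.5 male cells. The rest of the chromosome held 0.0426 to 10.4 kb per Mb, and the distal end was the denser in all 9 libraries. The mean log2 ratio was 2.75 ± 0.84 (SD, n = 9), with 1 kb per Mb added to both densities in these per-chromosome values. Much of the length lay in the 200 kb centred 700 kb from the end. There 84.3 of 100 kb and then 48.1 of 100 kb were in peaks in E10.5 replicate 1, and 1.72 and 1.24 kb in E13.5 male replicate 2, whose only distal peaks on this chromosome they were. H3K9me3 went the other way on this end, at -1.11 ± 0.60 (SD, n = 9), lower than the rest in all 9 libraries.

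**Figure D4:**
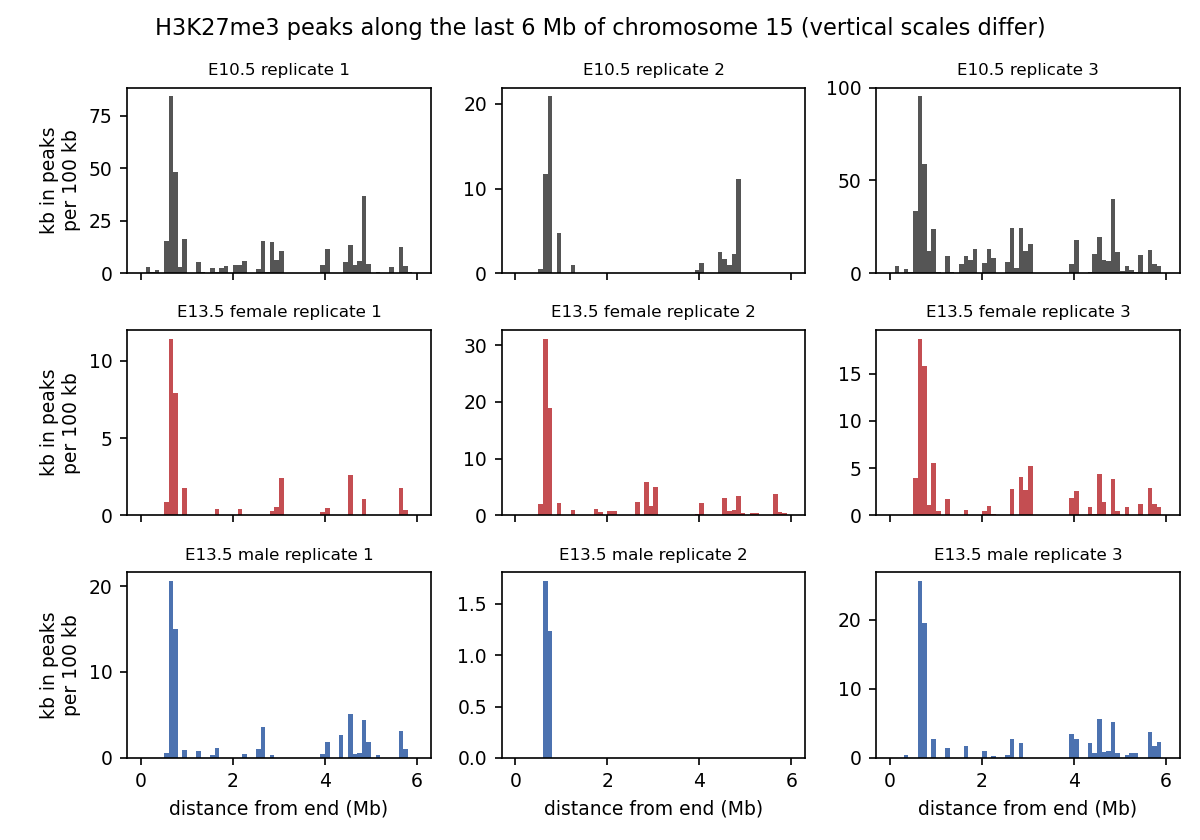
H3K27me3 length in peaks per 100 kb (vertical axis, kb; scales differ between panels) against distance from the end of chromosome 15 (horizontal axis, 6 Mb), 1 panel per library. The steps between 0.6 and 0.8 Mb are the tallest in all 9 panels, reaching 95.3 kb in E10.5 replicate 3.

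Within that stretch, the longest distal run of 10-kb bins holding at least 1 kb of H3K27me3 peaks in 8 libraries was chr15:102760001-102810000 (mm9). E13.5 male replicate 2, the 359-peak list, was left out because no distal bin was held by all 9 libraries, a choice made after its values were seen. The run held 49.1, 22.5 and 48.9 kb of peaks at E10.5. It held 11, 24.2 and 15.4 kb in E13.5 female and 21.1, 2.96 and 23 kb in E13.5 male libraries. The widest distal peak of the series, 43733 bp at chr15:102767568-102811300 in E10.5 replicate 1, covers most of it. In the gene order of RefSeq's table for the later build GRCm38.p6, the Hoxc genes, homeobox regulators of positional identity along the body axis, are the 16th (Hoxc4) to the 24th (Hoxc13) protein-coding genes from this end. Peaks were not matched to genes, since no annotation of mm9 is at hand, and the genes named here and below were picked after the positions were seen.

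Other autosomes differed in sign as well as size. For H3K27me3, 11 autosomes had a mean log2 ratio above 0 and 8 below. Chromosomes 10 (1.22 ± 0.66) and 4 (1.17 ± 0.57) followed chromosome 15, each denser at the distal end in 8 of 9 libraries. Chromosome 10 had 16.2 ± 13.1 kb per Mb there at E10.5, 3.0 ± 1.78 for E13.5 female and 3.06 ± 3.12 for E13.5 male libraries (SD, n = 3 each), and the exception was E13.5 male replicate 2, with no distal peak. Chromosome 16 (0.86 ± 0.42), named after its values were seen, was denser distally in all 9. The lowest were chromosomes 17 (-1.11 ± 0.94), 6 (-1.09 ± 0.50) and 8 (-0.90 ± 0.46; SD, n = 9 each), sparser in all 9 libraries, so the tips of these 3 autosomes were poor in H3K27me3. Chromosomes 18 (-0.68 ± 0.44) and 3 (-0.59 ± 0.34; SD, n = 9 each) were also sparser distally in all 9.

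For H3K9me3 the counts leaned the other way, with 5 autosomes above 0 and 14 below. Chromosome 12 led at 0.61 ± 0.44, higher distally in 8 of 9 libraries. Its distal density was 0.652, 47.1 and 0.345 kb per Mb at E10.5 against 0.839, 36.4 and 0.134 in its rest. The E13.5 values were 6.24, 10.3 and 4.75 kb per Mb in female and 67.3, 51.5 and 22.7 in male cells, and all 6 E13.5 libraries were above their own rest. Chromosome 2 (0.41 ± 0.23) was higher distally in all 9, and chromosome 10 (0.33 ± 0.30) in 7. Chromosomes 7 (-1.21 ± 0.71), 15 (-1.11 ± 0.60) and 19 (-0.93 ± 0.49) were lowest (SD, n = 9 each). On chromosome 7, E10.5 replicate 1 was the 1 library of 9 with the higher density at the distal end, 0.971 against 0.784 kb per Mb.

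**Figure D5:**
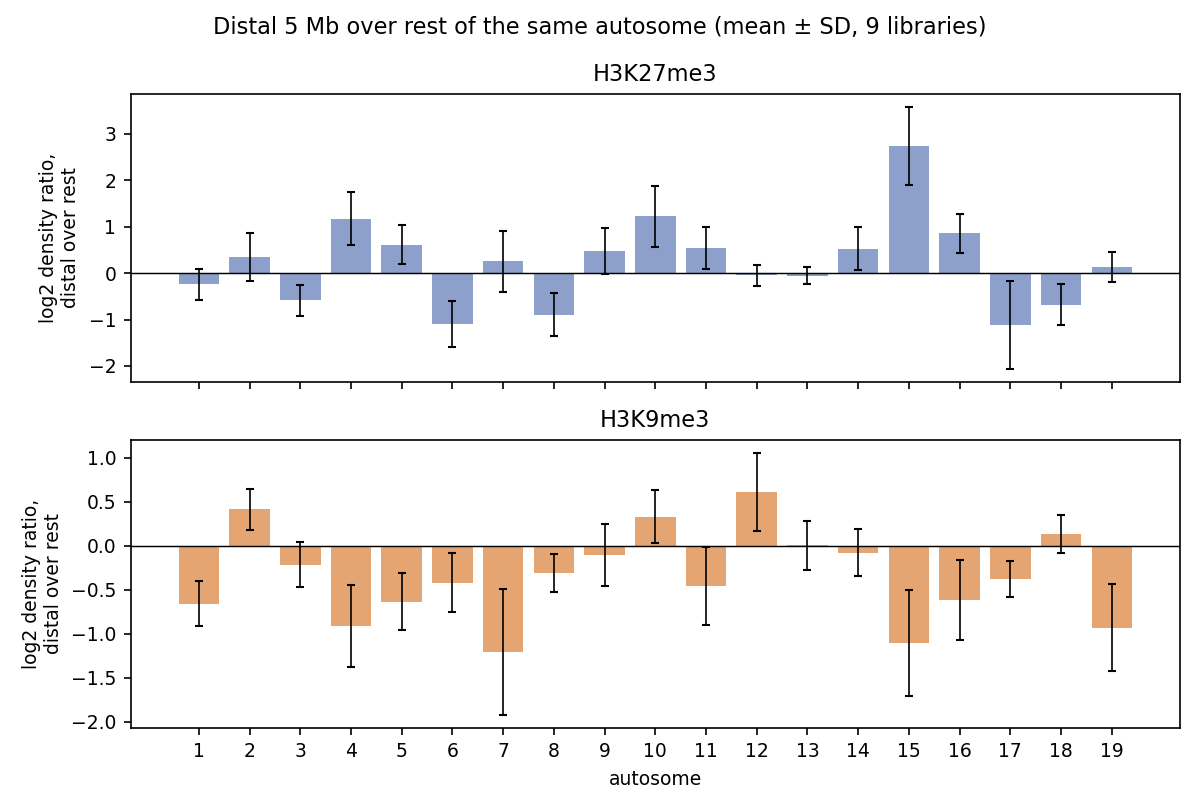
Mean log2 ratio of peak length per Mb in the distal 5 Mb over the rest of the same autosome (vertical axis, 1 kb per Mb added to both; scales differ between panels) for the 19 autosomes, with SD over 9 libraries. Chromosome 15 stands highest for H3K27me3 (2.75) and second lowest for H3K9me3 (-1.11), and chromosome 12 highest for H3K9me3 (0.61).

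Shares of distal 10-kb bins that recurred across libraries lay near those of all autosomal bins, with the widest gap for H3K27me3 at E10.5. None of 595 held peaks in all 9 H3K27me3 libraries and none of 766 in all 9 H3K9me3 libraries, against 0.0887% of all autosomal bins with H3K27me3 in any library and 0.0766% of those with H3K9me3, shares at which fewer than 1 distal bin would be held. In the 8 H3K27me3 libraries without E13.5 male replicate 2, 10 of 595 distal bins (1.68%) were held by all, against 1.21% of all bins. All 3 libraries of a group held 58 of 595 distal H3K27me3 bins at E10.5 (9.75%, against 6.99% of all bins), 22 in E13.5 female (3.70%, against 3.29%) and 0 in E13.5 male cells (against 0.166%). For H3K9me3 they held 0 of 766 at E10.5 (against 0.0888%), 4 in E13.5 female (0.522%, against 0.658%) and 189 in E13.5 male cells (24.7%, against 24.5%).

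Beside the chromosome 15 run, the distal H3K27me3 bins held by 8 libraries included single bins at chr19:59530001-59540000, chr5:148080001-148090000 and chr16:94080001-94090000. The chromosome 16 bin was the fullest of these 3, with 10.0, 7.04 and 10.0 kb in peaks at E10.5, 3.55, 3.69 and 5.05 kb in E13.5 female and 6.37, 0.753 and 6.04 kb in E13.5 male libraries. In the same RefSeq order, the tip of chromosome 5 carries the endoderm regulators Cdx2 and Pdx1 as the 31st and the 32nd protein-coding genes from the end, and that of chromosome 19 the forebrain regulators Emx2 and Vax1 as the 14th and the 18th.

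Some distal bins separated the groups, in that all libraries of one group held peaks and none of the other did. For H3K27me3, 20 of 586 distal bins (3.41%) were held at E10.5 and not in E13.5 female cells, against 2.12% of all bins. The counts were 18 (3.06%, against 2.34%) for E13.5 male cells and 13 (2.18%, against 1.42%) for both E13.5 groups together. No distal bin was held at E13.5 and not at E10.5, where 0.0337, 0.0338 and 0.0333% of all bins were. Female against male cells gave 2 bins held in female cells only (1.05%, against 1.67%). Leaving out E10.5 replicate 2, the shortest E10.5 list, raised the counts against E10.5 to 215, 225 and 179, or 36.7, 38.2 and 30.1% of the distal bins, against 33.9, 39.8 and 29.9% of all bins.

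The bins held only at E10.5 with the highest scores were on chromosomes 7 and 2. The bin chr7:148480001-148490000 held 1.63, 1.46 and 1.64 kb of H3K27me3 peaks in the 3 E10.5 libraries and none in the 6 E13.5 libraries. The bin chr7:148100001-148110000 held 5.71, 1.07 and 6.57 kb at E10.5, and at E13.5 only 0.209 kb in 1 male library. At chr2:180370001-180380000 the E10.5 values were 1.02, 1.19 and 1.69 kb, with none at E13.5. The 2 bins held in female and not in male cells were chr15:100470001-100480000, with 1.71, 2.41 and 2.85 kb in female libraries, and chr5:149210001-149220000, with 1.17, 1.72 and 1.96 kb. Both were also in peaks in E10.5 replicates 1 and 3.

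Chromosome 7 showed this contrast over its whole distal end, as a description of values chosen after they were seen. Its H3K27me3 density there was 16.5, 1.99 and 39.5 kb per Mb at E10.5 against 7.25, 0.817 and 13.8 in its rest, the higher in all 3 libraries. In E13.5 female cells it was 0.236, 1.11 and 1.16 kb per Mb against 0.403, 1.84 and 1.43. In E13.5 male cells it was 0.976, 0 and 1.59 kb per Mb against 0.975, 0.0332 and 1.75. The distal end was thus below or level with the rest in each E13.5 library. RefSeq's order places the imprinted genes Igf2 (a growth factor), Kcnq1 (a potassium channel subunit) and Cdkn1c (a cell-cycle inhibitor) as the 37th, the 29th and the 28th protein-coding genes from this end.

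For H3K9me3, 37 of 761 distal bins (4.86%) were held in E13.5 male cells and not at E10.5, against 3.61% of all bins. Male against female cells gave 16.04% of 742 distal bins, against 14.8%, so both shares lay near the background. No distal bin was held in the other direction, where 0% of all bins were. Female cells against E10.5 gave 0 distal bins in either direction, against 0 and 0.016% of all bins. The 2 longest distal runs held in male cells and not at E10.5 were chr9:121130001-121150000, with 6.18, 4.19 and 5.39 kb in male libraries 0.19, 1.34 and 0.648 kb in the female ones and no more than 0.413 kb at E10.5, and chr12:121010001-121030000, with 6.85, 2.90 and 4.18 kb in male libraries, 0.723 kb in 1 female library and none at E10.5. The latter lies 224 kb from the end of chromosome 12. The longest held in male and not in female cells were 30 kb, at chr2:176870001-176900000 and chr12:116630001-116660000. The male lists are also the longest of this mark, and leaving out E10.5 replicate 2 raised the count against E10.5 to 169 (22.96%, against 23.6% of all bins).

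Shares of each library's own peak length in 1-Mb bins were compared with limma on log2(ppm + 100), a scale that understates changes of thin bins. None of 77 distal bins with H3K27me3 passed an adjusted p of 0.05 in any of the 4 comparisons, against 0.0573% (female against E10.5), 0.286% (male against E10.5), 0.229% (male against female) and 0.0573% (E13.5 against E10.5) of all bins. At an unadjusted limma p below 0.05 the distal counts were 10, 13, 8 and 9, or 12.99, 16.9, 10.4 and 11.7% of the distal bins, against 6.64, 13.1, 9.34 and 9.51% of all bins. None of 88 distal bins with H3K9me3 passed either, against 0.478, 0, 0 and 0.0398% of all bins in the same order. The distal counts at an unadjusted limma p below 0.05 were 7, 16, 5 and 15 in that order, or 7.95, 18.2, 5.68 and 17.05%, against 9.03, 15.9, 9.35 and 13.2% of all bins. In data simulated for male against E10.5, on all 2652 bins, a change of 2 on this scale was found in 0% of altered H3K27me3 bins and 22% of altered H3K9me3 bins. The real fits kept 1746 and 2513 bins, and simulated decreases were cut off at 0 ppm. These shares are therefore not the power of the tests above. A call of 0 is still no evidence that changes of that size are absent.

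The lowest adjusted p among distal bins was 0.0764 (limma, E13.5 against E10.5), for H3K27me3 at chr7:148352550-149352549. That bin took 570, 1550 and 754 ppm of the peak length of the E10.5 libraries. It took 0, 46.2 and 0 ppm in E13.5 female and 201, 0 and 0 ppm in E13.5 male cells. All 3 E10.5 libraries were above all 6 E13.5 libraries, a log2 change of -2.94 ± 0.86 (SE).

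Distal H3K27me3 peaks were slightly wider than others. The median width was 954, 979 and 781 bp at E10.5 against 932, 823 and 734 bp in the rest. In E13.5 female cells it was 528, 493 and 523 bp against 429, 514 and 469 bp, and in E13.5 male cells 604, 293 and 597 bp against 497, 283 and 552 bp. The distal median was the larger in 8 of 9 libraries, by 0.13 ± 0.12 on the log2 scale (SD, n = 9; exact sign-flip p = 0.0156; adjusted p = 0.0260). Among the 359 top-ranked peaks of each list the difference was 0.03 (exact sign-flip p = 0.887). H3K9me3 widths differed by -0.005 ± 0.105 (SD, n = 9; exact sign-flip p = 0.906; adjusted p = 0.906), and the widest distal peak, 14789 bp, was at chr13:119913972-119928760 in E13.5 male replicate 1.

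Distal peaks did not rank above the others of their list by these tests. The authors' score placed the median distal peak 4.80 ± 8.10 percentile points below the middle for H3K27me3 (SD, n = 9; exact sign-flip p = 0.0859; adjusted p = 0.107). For H3K9me3 it was 0.817 ± 4.26 points below (SD, n = 9; exact sign-flip p = 0.574; adjusted p = 0.638). The lowest H3K27me3 value was that of E13.5 male replicate 2, with its median distal peak at percentile 25.5 of the list.

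Relative to the densities of the marks, regions in both were scarcer at the tips than elsewhere in 8 of 9 pairs. Between libraries of the same group and number, 0.425 to 3.01 kb of the distal ends lay in peaks of both marks. The observed length relative to that expected from the 2 densities, with 1 kb added to each, was lower at the distal ends in 8 of 9 pairs, by -1.73 ± 1.05 on the log2 scale (SD, n = 9; exact sign-flip p = 0.00781; adjusted p = 0.0156). The exception was E13.5 female replicate 2, at 0.08. The lower ratio does not mean that the marks shared less than expected at the tips. There the shared length fell short only in E10.5 replicate 2 (0.425 against 2.55 kb expected) and E13.5 male replicate 1 (2.33 against 4.64 kb). In the rest it fell short in no pair. The expected length takes each mark as spread evenly over the 19 tips. Chromosome 15 held 21.2 to 35.2% of the distal H3K27me3 length but 0 to 1.74% of that of H3K9me3, so the distal expected length can be too high. No value without that chromosome is given here. With distal lengths this short the added 1 kb pulls the distal log2 ratio towards 0, and that of the rest less. With nothing added, an alternative chosen after seeing the data, the difference was -1.18 ± 1.25 (SD, n = 9; exact sign-flip p = 0.0117), again lower in 8 of 9 pairs, from -4.10 in E10.5 replicate 2 to -0.07 in E13.5 female replicate 3.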

How the data were processed

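Peaks were called by the authors per library against an input, per the peak names in the deposited lists, and positions are in mm9. Per the submitters' processing notes the tools were MACS2 2.1.0, BWA 0.7.5a, deepTools 3.3.0, CASAVA 1.8.4, SAMtools and Picard, with no role stated. The sources used here give no peak threshold. The deposited score columns, the authors' own values per peak, have an unknown scale and served only to rank and filter peaks. The minimum score of 20 used a different column than the ranking did. Depth is unknown, so counts of peaks per list stand for precision, and no interval on reads can be given. The labels list 31 samples, 13 of them inputs, which are not used here, and the label of 1 E10.5 H3K9me3 input (replicate 2) gives E13.5 as its stage.

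Peaks with starts in the last 5 Mb of an autosome were distal, and 19 mitochondrial peaks were dropped. Peaks within a list do not overlap, so widths were summed. Length in peaks was divided by window length, where the rest began at the chromosome's first peak. Log2 ratios were tested over 9 libraries of a mark by exact two-sided sign-flip tests, adjusted by Benjamini-Hochberg over 10 tests, and between groups by exact permutation of labels over 8 tests. Bins of 10 kb counted as held with at least 1 kb in peaks. Bins of 1 Mb, counted back from the end and with peaks in at least 3 libraries, were tested with limma 3.58.1 (R 4.3.3) on log2(ppm + 100), in 1 fit per mark. Simulated data (male against E10.5) had 200 altered bins of 2652, and no bin was filtered out. There a log2 change of 4 was found in 48.5% (H3K27me3) and 67% (H3K9me3) of the altered bins. Other steps used Python 3.11.15 with numpy 2.4.6 and pandas 2.3.3. Alternatives were other windows, units, score filters, a block on replicate number, bins, chromosomes or libraries left out.

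Named regions are, per mark, the 5 longest distal runs held by all libraries, the 3 longest runs per comparison and direction that separate groups (ties by higher score), up to 5 called 1-Mb bins per direction, the 3 highest and 3 lowest autosomes, and the widest peak per group. No run was held by all 9 libraries, so runs held by 8 are given. The distal ends, the windows and the regions were chosen with earlier results of these data known. Gene order came from the RefSeq table of GRCm38.p6. Sequences of the regions are not shown, since no mm9 genome was used.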

Additional observations from a re-analysis of the deposited data

Results flagged for a closer look

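In 22 sets of 9 or 6 libraries or pairs of lists, each tested for a value far from the others, 7 had one. Chance gives about 1 in 20 for a single set. The sets of 6 are the E13.5 part of the sets of 9, so the flags are not independent and 7 of 22 cannot be held against that rate. Of these, 5 were the 359-peak H3K27me3 list of E13.5 male replicate 2. Its log2 ratio of distal over proximal density was -1.75, against 1.40 to 2.39 in the others, both among the 9 libraries and among the 6 of E13.5. Its density in the last 200 kb was 1.68 times that of the rest, against 0 to 0.438 among the 9 and 0.157 to 0.363 among the 6. Its median distal peak lay at percentile 25.5 of the list, against 42.8 to 49.8 in the other E13.5 libraries. A further flag was the distal H3K9me3 peak width of E10.5 replicate 1, whose log2 ratio to the rest was 0.25, against -0.13 to 0.01 in the other 8. The last was the H3K9me3 density in the last 200 kb of E10.5 replicate 3, at 8.0 times the rest, against 2.31 to 3.12.

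Chromosome X is outside the comparison of autosomes. Its last 5 Mb held 78 H3K27me3 peaks and 382 H3K9me3 peaks over the 9 libraries of each mark.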

How the results depend on the processing

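The distal excess of H3K27me3 was -0.345 (log2, exact sign-flip p = 0.328) with equal numbers of top-ranked peaks. It was 0.127 (exact sign-flip p = 0.117) as the median over autosomes, where 1 kb per Mb was added to both densities. It stayed above 0 and past the threshold under the other 9 settings that left out no library. The last 200 kb gave no H3K27me3 value, since 1 library had no peak there. The H3K9me3 ratio was -0.0413 (exact p = 0.609) at 2 Mb, 0.500 at 1 Mb, 1.66 at 200 kb and 1.63 at 200 kb without the peak that sets each chromosome end. The difference between marks was 0.598 with top-ranked peaks, and H3K27me3 distal over proximal was -1.20. The width ratio was 0.0558 (10 Mb) and 0.0309 (top-ranked) for H3K27me3, and 0.0750 and -0.258 for H3K9me3, whose score percentile moved by 1.12 and 8.48 points. These are sign-flip tests.

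No group comparison of the density ratio passed the threshold under any setting, and signs changed as follows. H3K27me3 male against E10.5 was 0.0768 at 2 Mb and 0.240 at 1 Mb, and E13.5 against E10.5 was 0.00166 and 0.0542. H3K27me3 male against female was -0.0298 at a score of at least 20. H3K9me3 male against female was -0.00167 at 10 Mb, -0.254 with top-ranked peaks and -0.00632 at a score of at least 20. H3K9me3 female against E10.5 was 0.0258 with top-ranked peaks, and from 1 to 5 Mb female, male and E13.5 against E10.5 were 0.134, 0.161 and 0.147. Leaving out 1 library at a time gave -0.234 to 0.119 for H3K27me3 male against E10.5 and -0.0104 to 0.118 for H3K9me3 male against female. It gave -0.0369 to 0.0114 for the H3K9me3 width ratio, which passed the threshold (exact sign-flip p = 0.0391) without E10.5 replicate 1. It gave -5.95 to -2.48 points for the H3K27me3 score percentile, which passed (exact sign-flip p = 0.0156) without E10.5 replicate 3, and -1.50 to 0.0438 points for H3K9me3.

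Counts of separating distal 10-kb bins changed with the settings. With any overlap counting as held they were 30 (H3K27me3 male against E10.5), 7 (male against female), and for H3K9me3 3 (female against E10.5), 116 (male against E10.5) and 2 (E13.5 against E10.5). At a score of at least 20 they were 38, 35 and 28 for H3K27me3 female, male and E13.5 against E10.5, and 0 for H3K27me3 male against female and both H3K9me3 male comparisons. With top-ranked peaks all that moved were 0. Leaving out 1 library gave, for H3K27me3, 21 to 215 (female against E10.5), 18 to 225 (male against E10.5), 13 to 179 (E13.5 against E10.5) and 2 to 15 (male against female). For H3K9me3 it gave 0 to 7, 37 to 169 and 121 to 272 (female against E10.5, male against E10.5, male against female). Called distal 1-Mb bins were 1 for H3K27me3 male against E10.5 with no filter on bins (1.05%, against 0.189% of all bins). Leaving out 1 library gave 0 to 2 for H3K27me3 female and E13.5 against E10.5, and, for H3K9me3, 0 to 1 (female against E10.5), 0 to 14 (male against E10.5), 0 to 1 (male against female) and 0 to 6 (E13.5 against E10.5). The highest of these for H3K9me3 came without E10.5 replicate 2, where 14 and 6 (15.9 and 6.82% of the distal bins) were called for male and E13.5 against E10.5, against 16.3 and 4.73% of all bins. The 1 bin each for female against E10.5 and male against female there was 1.14%, against 1.70 and 0.727% of all bins. For H3K27me3 the 2 bins were 2.60% of the distal bins, against 1.15% (female, without E13.5 male replicate 2) and 1.05% (E13.5, without E10.5 replicate 2) of all bins. Deviations of same-numbered libraries correlated weakly, from -0.213 to 0.187 (H3K27me3) and from -0.0500 to 0.133 (H3K9me3). For H3K27me3 the pairs of replicate 3 were all positive, at 0.118, 0.187 and 0.151, while those of replicates 1 and 2 ran from -0.213 to 0.122. A batch shared by replicate number was not tested. With a replicate block 0 distal 1-Mb bins were called in the 8 comparisons, against 1, 6, 4 and 6 of all 1746 H3K27me3 bins and 34, 6, 11 and 30 of all 2513 H3K9me3 bins (female and male against E10.5, male against female, E13.5 against E10.5). Without the block the counts over all bins were 1, 5, 4 and 1 for H3K27me3 and 12, 0, 0 and 1 for H3K9me3. The cause of these changes was not tested. List length, from 359 to 56632 peaks, limits every value here.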

Other observations

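On the last 5 Mb of chromosome X, H3K9me3 covered 3.64, 22.9 and 3.3 kb per Mb at E10.5, against 0.979, 22.7 and 0.344 kb per Mb in the rest of X. The values were 12.1, 15.5 and 11.8 kb per Mb in E13.5 female and 24.2, 19.2 and 21.1 in E13.5 male cells, against 7.18, 15 and 5.87 and then 29.1, 20.9 and 12.3 in the rest. The distal end of X was the denser in 7 of 9 libraries, and the exceptions were E13.5 male replicates 1 and 2. The ratio ran from 0.831 to 9.61, with the highest value in E10.5 replicate 3, the shortest list of the mark. H3K27me3 peaks there numbered 1 to 25 per library, too few for a ratio to carry weight.

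Shared peak length between libraries was of the same order at the distal ends and elsewhere. For H3K27me3 the median Jaccard index (shared length over combined length) was 0.101 at the distal ends and 0.0870 in the rest over 9 pairs within groups, and 0.0985 and 0.0854 over 27 pairs between groups. For H3K9me3 the values were 0.0712 and 0.0821 within groups and 0.0463 and 0.0505 between them. List lengths differ widely within groups, which limits this index.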
